A study of Danio rerio with 18 samples.

Results

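Neutrophils and macrophages, the myeloid phagocytes of the zebrafish larva, were compared through the transcripts on their ribosomes. Both cell types arise from myeloid progenitors that depend on the transcription factor Pu.1. Neutrophils carry granules of antimicrobial proteins and are the early arrivals at a wound, whereas macrophages engulf particles and dying cells, digest them in lysosomes and depend on Csf1 receptor signalling. In translating ribosome affinity purification (TRAP), a promoter active in one cell type drives the ribosomal protein L10a fused to EGFP, and transcripts bound to the tagged ribosomes are immunoprecipitated from lysates of whole larvae, so that mRNA of other tissues can be carried along.

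The comparison took the 6 libraries of *Tg(LyzC:EGFP-L10a)* larvae, in which the lysozyme promoter drives the tag in neutrophils, and 5 libraries of *Tg(mpeg1:EGFP-L10a)* larvae, in which the *mpeg1* promoter drives it in macrophages, out of 18 libraries in the series. Membership followed the sample labels. All larvae were 3 days post-fertilization, and every one had also received a plasmid that expresses HRas with an RFP tag in keratinocytes under the *krt4* promoter, either control HRas or the constitutively active HRasG12V. There was thus no group without ectopic HRas. The neutrophil libraries comprised 3 with HRas control and 3 with HRasG12V, and the macrophage libraries 2 and 3. Each library pooled about 50 larvae, and the replicate number marks a labelled batch. The 6 libraries of keratinocytes, tagged by a *krt4*-driven EGFP-L10a plasmid in wild-type larvae, served only as an outside reference. Transgenes under the lysozyme promoter are known to be active in some macrophages too, which limits the neutrophil line as a model.

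The 11 libraries held between 6206920 and 14781100 estimated read counts, of which the 10 most abundant features took between 72.9% and 93.5%. This left between 400705 and 2577040 counts for all other genes. Levels are given as normalised CPM, the usual CPM scale after scaling library sizes by edgeR's TMM factors, and 1 normalised CPM corresponded to between 3.197 and 19.4 counts depending on the library. The sixth macrophage library, HRas control replicate 3, held 16990 counts, of which 3 fell on the list of macrophage surface genes described below, and was left out. Neutrophil HRas control replicate 3 was the shallowest library used and stood apart, at 147.9 on a first principal component that carried 31.8% of the variance, where the other 10 libraries lay between -48.7 and 24.8. The main counts, *lyz* and *npsn* are also given without it, and the macrophage surface, lysosome, pan-leukocyte and neuron lists described below then had 17, 20, 19 and 6 members past the threshold, against 17, 20, 19 and 7 with it. In bulk material of this kind, fewer cells of a type and less RNA per cell cannot be told apart.

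The genes of both tag promoters followed the labels. *lyz* (ENSDARG00000057789), which encodes the lysozyme whose promoter carried the neutrophil tag, lay at 2.502, 19.1 and 55.7 normalised CPM in the lowest, median and highest neutrophil library and at 0.363, 1.61, 2.11, 3.30 and 0 in the 5 macrophage libraries. The cell types overlapped only through neutrophil HRas control replicate 3. *MPEG1* (ENSDARG00000055290), a perforin-like gene of macrophages, was at 0 in 4 of 6 neutrophil libraries and at most 0.312, against 4.91, 10.8, 10.7, 14.3 and 5.34 normalised CPM in macrophages, with no overlap. With so few neutrophil counts, *MPEG1* could be tested only through its macrophage counts, which fixes its direction. *lyz* was 23.7-fold higher in neutrophils (95% interval 14.2 to 40.3, adjusted p = 1.73e-08 by the quasi-likelihood test of edgeR), while *MPEG1* was 76.8-fold higher in macrophages (41.7 to 174, adjusted p = 1.40e-08, same test). Without neutrophil HRas control replicate 3 the log2 difference of *lyz* was 4.55 instead of 4.57. Other tissues were nonetheless far more abundant than either marker: *krt4*, a keratin of the larval epidermis, averaged 916 normalised CPM in neutrophil and 1731 in macrophage libraries.

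Across the 15546 genes tested, the macrophage side of the comparison was larger and steeper. At an adjusted p-value of at most 0.05, 574 genes (3.69%) were higher in macrophages and 228 (1.47%) were higher in neutrophils, or 5.16% in all, by edgeR's quasi-likelihood test with batch and construct as covariates. Of the genes higher in macrophages, 464 differed over 2-fold, 247 over 4-fold and 51 over 16-fold, against 98, 14 and 6 of the genes higher in neutrophils. The median log2 difference, neutrophil minus macrophage, was -1.79 and 0.95 for these genes, and -0.02 over all genes. The genes higher in macrophages were scarce in neutrophil libraries, with a median of 2.23 against 8.48 normalised CPM, whereas those higher in neutrophils kept a median of 9.13 in macrophage libraries against 18.9. The normalised CPM of the cell types did not overlap for 397 of 574 and 152 of 228 genes, beside 856 of all genes (5.51%). Within each of the 3 batches the difference had the same sign for 571 and 225. The genes were called from these same libraries, so neither count is an independent check.

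The macrophage count was little affected by how the data were scaled, and the neutrophil count was not so stable. Macrophage genes made up 71.6% of the calls, and 98.0% without any normalization beyond library size, which shifted the median of all genes by -0.27 on the log2 scale and left 575 genes higher in macrophages and 12 higher in neutrophils. Leaving out neutrophil HRas control replicate 3 gave 644 and 258 genes. The neutrophil count fell to 112 without neutrophil HRasG12V replicate 1, 140 without neutrophil HRasG12V replicate 3, 144, 121, 138 and 118 without macrophage HRasG12V replicate 1, HRas control replicate 1, HRas control replicate 2 and HRasG12V replicate 3, and 26 without batch 1 and 125 without batch 3. The macrophage count stayed between 385 and 644 when 1 library was left out, and was 260 without batch 1 and 248 without batch 2.

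**Figure D1:**
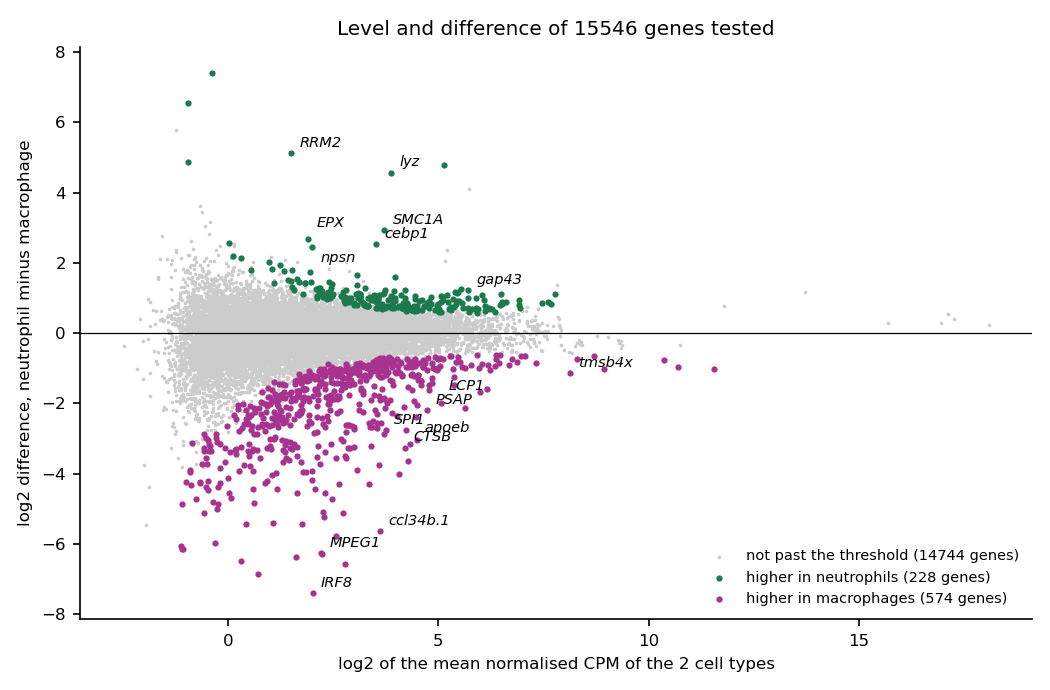
Each point is 1 of 15546 genes, placed by the log2 of its mean normalised CPM over both cell types (x axis) and its fitted log2 difference, neutrophil minus macrophage (y axis), with genes past the threshold in colour. The 574 macrophage genes reach differences below -6, while most of the 228 neutrophil genes lie between 0.5 and 2, with *lyz* and *RRM2* above.

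Few of the genes higher in neutrophils were on the lists of leukocyte genes. Of the 228 genes, 3 belonged to the 14 such lists described here (1.32%, beside 1.24% of all genes tested). These were *lyz*, *npsn* and *cebp1*. *EPX*, also higher in neutrophils and described below, was placed by its symbol alone on the list of mast cell and eosinophil genes. That list is not among these 14, so the count of 3 leaves this peroxidase gene out. Of the 574 genes higher in macrophages, 95 belonged to these lists (16.6%).

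The granulocyte genes among them were few. *cebp1* (ENSDARG00000101096), a C/EBP transcription factor of zebrafish myeloid cells, lay between 10.01 and 39.3 normalised CPM in neutrophils with a median of 16.4, and at 2.54, 2.61, 1.44, 4.59 and 6.24 in macrophages. The ranges did not overlap, and the difference was 5.82-fold (3.73 to 9.13, adjusted p = 8.48e-06, edgeR). *npsn* (ENSDARG00000010423), the astacin-like protease nephrosin that is made by zebrafish neutrophils, lay between 0.938 and 12.2 with a median of 7.45 in neutrophils, against 1.09, 1.21, 1.33, 1.80 and 1.01 in macrophages. The overlap came again from neutrophil HRas control replicate 3 alone, and the difference was 5.42-fold (3.29 to 9.09, adjusted p = 7.90e-05, same test), or 2.44 on the log2 scale and 2.52 without that library. A gene listed as *EPX* (ENSDARG00000019521), a member of the peroxidase family of granulocytes, lay between 1.56 and 15.7 with a median of 5.11 in neutrophils. It was at 1.27, 1.21, 0.444, 1.24 and 0.906 in macrophages, with no overlap and a 6.37-fold difference (3.52 to 11.8, adjusted p = 0.000208, same test). The name is its listed symbol alone and does not settle which granulocyte peroxidase this gene is. The paper used *mpx* and *lyz* as neutrophil genes, and whether this gene is *mpx* was not tested.

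The list of 20 neutrophil granule and effector genes, which did not hold *EPX*, had 17 members with enough counts to be tested. Of these, *lyz* and *npsn* were past the threshold. None was higher in macrophages, 10 had a positive and 7 a negative difference, and the list's median log2 difference was 0.40. Summed over the list, the neutrophil libraries ranged from 11.3 to 103 normalised CPM and the macrophage libraries from 20.4 to 39.3, so that the sums overlapped. *cfl1l*, a cofilin-like actin regulator on the same list, was lower in both cell types than in keratinocytes, with log2 differences of -2.66 and -2.38 (adjusted p = 2.08e-06 and 3.79e-05). Among neutrophil receptors and regulators, 8 of 17 genes could be tested, of which 3 had a positive and 5 a negative difference, with a median of -1.30. *cebp1* was higher in neutrophils, whereas *CEBPA* and *CEBPB*, C/EBP factors of the granulocyte and macrophage lineages, were higher in macrophages, by 2.75-fold (1.88 to 4.04, adjusted p = 0.00127, edgeR) and 2.38-fold (1.69 to 3.34, adjusted p = 0.00179, edgeR). The paralogous C/EBP genes thus stood on opposite sides.

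Genes with general cellular roles had some of the steepest differences on the neutrophil side. *RRM2* (ENSDARG00000020711), a subunit of the ribonucleotide reductase that supplies deoxynucleotides, lay between 1.35 and 9.22 normalised CPM in neutrophils with a median of 6.26, and at 0, 0.804, 0.111, 0 and 0 in macrophages. *SMC1A* (ENSDARG00000055754), a cohesin subunit, lay between 14.4 and 29.9 with a median of 23.5 in neutrophils, and at 1.64, 1.105, 2.11, 2.83 and 8.26 in macrophages. Neither gene overlapped between the cell types. The differences were 34.7-fold for *RRM2* (13.2 to 106, adjusted p = 4.49e-05, edgeR) and 7.61-fold for *SMC1A* (4.67 to 12.5, adjusted p = 4.33e-06, edgeR). With so few macrophage counts, *RRM2* could be tested only through its neutrophil counts, which fixes its direction. Of 27 cell cycle genes tested, this *RRM2* was the 1 higher in neutrophils, and 1 was higher in macrophages. Other genes without overlap were smaller in difference: *hnrnpa3*, an RNA-binding protein, was 2.45-fold higher in neutrophils (1.74 to 3.47, adjusted p = 0.00151, edgeR), and *PRSS35*, a serine protease-like gene, 4.07-fold (2.11 to 8.06, adjusted p = 0.00905, edgeR).

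**Figure D2:**
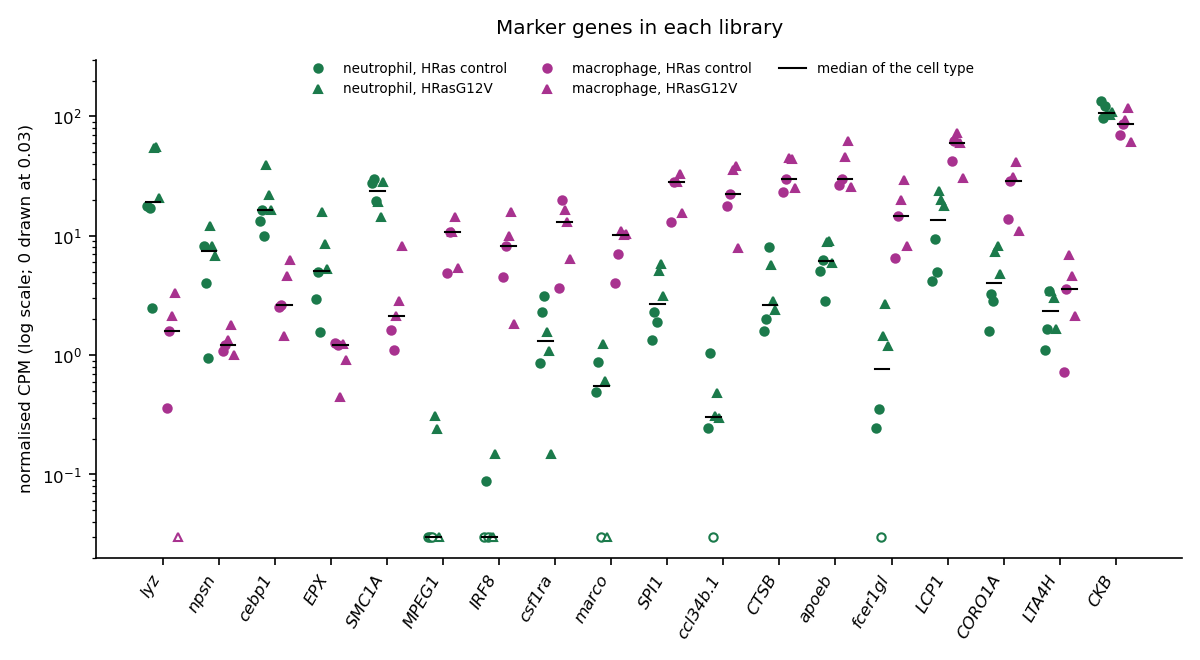
Normalised CPM (log axis) of 18 genes in each of 6 neutrophil and 5 macrophage libraries, with the median of each cell type as a bar and libraries at 0 drawn as open symbols at 0.03. *cebp1*, *EPX* and *SMC1A* separate upward in neutrophils, the genes from *MPEG1* to *CORO1A* separate upward in macrophages, and *LTA4H* and *CKB* overlap.

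Of the 228 genes higher in neutrophils, 15 belonged to any of the gene lists (6.58%, beside 3.65% of all genes tested), and 7 of these were on the neuron list. Of 31 neuron genes, all of which could be tested, 7 were thus higher in neutrophil libraries and 0 in macrophage libraries (4 and 12 were higher in neutrophil libraries at the extremes, without macrophage HRas control replicate 1 and without macrophage HRasG12V replicate 2). *gap43*, a growth cone protein, lay between 55.5 and 88.2 normalised CPM in neutrophil libraries with a median of 73.0, and at 30.4, 28.9, 37.7, 32.4 and 25.4 in macrophage libraries. There was no overlap, and the difference was 2.34-fold (1.80 to 3.06, adjusted p = 0.000126, edgeR). The microtubule regulators *STMN1* (ENSDARG00000033655) and *STMN2* (ENSDARG00000070537), the tubulin *tubb5* and the synaptic vesicle protein *SYN2* were also higher, by 2.21-fold, 1.92-fold, 1.84-fold and 2.12-fold (adjusted p between 0.00160 and 0.0145, edgeR). Outside the list, *RAB3A*, a GTPase of synaptic vesicle release, was 2.62-fold higher (1.66 to 4.15, adjusted p = 0.00941, edgeR). The call of *RAB3A* was lost without macrophage HRasG12V replicate 3 (adjusted p = 0.0524), and that of *SYN2* without macrophage HRas control replicate 1 (adjusted p = 0.0819) or HRasG12V replicate 3 (adjusted p = 0.0765).

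A positive difference was found for 28 of the 31 neuron genes, with a median of 0.54 on the log2 scale beside -0.02 for all genes. Summed over the list, they took between 1243 and 1715 normalised CPM in neutrophil libraries and between 835 and 1075 in macrophage libraries, without overlap. Against keratinocytes, 22 of 31 were higher in neutrophil libraries, beside 6.33% of all 16011 genes in that test, and 0 of 31 in macrophage libraries, beside 2.66%. Defining neuron genes such as *ELAVL4* (mean of 197 and 155) and *sncb* (190 and 127) were abundant in both cell types and did not pass the threshold between them. Without normalization beyond library size, 0 of 31 passed. The part of neuronal RNA in the genes higher in neutrophils was not tested.

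Metabolic and stress genes gave a few further calls on the neutrophil side. Of 24 glycolysis genes, 19 had a positive difference but 1 passed the threshold: *ENO1* (ENSDARG00000022456), an enolase, which lay between 36.5 and 95.4 normalised CPM with a median of 57.9 in neutrophils and at 19.4, 29.1, 26.7, 36.5 and 22.1 in macrophages. The lowest neutrophil library met the highest macrophage library, and the difference was 2.23-fold (1.60 to 3.11, adjusted p = 0.00318, edgeR). Of the glycolysis list, 9 genes were higher in neutrophils than in keratinocytes and 3 were higher in macrophages than in keratinocytes, beside 6.33% and 2.66% of all genes. *HSP90AA1*, an inducible chaperone, was 2.37-fold higher in neutrophils (1.52 to 3.68, adjusted p = 0.0169, edgeR) and the only one of 16 heat shock genes past the threshold (3 without neutrophil HRas control replicate 1). This call was lost without macrophage HRas control replicate 2 (adjusted p = 0.0843) or neutrophil HRasG12V replicate 3 (adjusted p = 0.0989).

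On the other side, the surface and identity genes of macrophages separated the cell types almost as a block. Of 32 such genes, 20 could be tested, and 17 of these were higher in macrophages while 0 were higher in neutrophils. All 20 had a negative difference, with a median of -3.18 on the log2 scale, where the median of all genes was -0.02. Members scarce in neutrophils, such as *MPEG1*, could be tested only through their macrophage counts. That fixes their direction, so the counts of calls and of signs are not free of the filter. The normalised CPM of 13 did not overlap, beside 5.51% of all genes. For this and every other list, the shares of all genes tested were 3.69% higher in macrophages and 1.47% higher in neutrophils. Summed over the list, the neutrophil libraries held between 14.7 and 27.4 normalised CPM and the macrophage libraries between 90.7 and 189. The count stayed between 14 and 17 with any 1 library left out and was 17 without normalization.

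The Csf1 receptor, which macrophages need for survival, and the scavenger receptors illustrate the pattern. *csf1ra* (ENSDARG00000102986) lay between 0.149 and 3.13 normalised CPM in neutrophils with a median of 1.32, and at 3.63, 20.1, 16.4, 13.04 and 6.34 in macrophages. *marco* (ENSDARG00000059294), a scavenger receptor that binds bacteria, was at most 1.25 in neutrophils and at 3.998, 7.03, 11, 10.2 and 10.4 in macrophages. Neither gene overlapped, and the differences were 8.35-fold (4.42 to 16.1, adjusted p = 8.91e-05, edgeR) and 13.3-fold (7.21 to 25.7, adjusted p = 4.73e-06, edgeR). At its low neutrophil level, *marco* was testable mainly through its macrophage counts, which favours that direction. The copy *csf1rb* differed less, by 2.42-fold (1.64 to 3.57, adjusted p = 0.00504, edgeR), from a neutrophil median of 3.87. The mannose receptor *mrc1b* differed by 18.1-fold (8.47 to 41.4), the phosphatidylserine receptor gene *havcr1* by 43.2-fold (20.4 to 109) and the amino acid transporter gene *SLC7A7* by 19.6-fold (10.6 to 37.5), with adjusted p between 7.23e-07 and 1.95e-05 (edgeR). Of the genes listed as *MFAP4*, a macrophage marker in zebrafish, ENSDARG00000090783 was the most abundant, with a mean of 19.5 against 0.938 normalised CPM and a 19.7-fold difference (12 to 33.4, adjusted p = 2.82e-08, edgeR). The other genes of this name and the second *MPEG1* gene (ENSDARG00000043093) have similar sequences, and the division of reads among them is uncertain.

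Genes on the list of myeloid transcription factors were higher in macrophages or did not pass. The list did not hold *cebp1*, the C/EBP factor described above that was higher in neutrophils. Of 28 factors tested, 10 were higher in macrophages and 0 in neutrophils (6 without macrophage HRas control replicate 2), and 18 did not pass. *IRF8* (ENSDARG00000056407), which directs myeloid progenitors to the macrophage fate, had 2 counts in the 6 neutrophil libraries together and 520 in the 5 macrophage libraries, where it lay at 4.54, 8.14, 9.89, 15.8 and 1.81 normalised CPM. This gene, 1 of the 10, was testable only through its macrophage counts, which fixes its direction. The ratio of the pooled levels was 269, with a counting interval of 74.0 to 2225. Pu.1 is encoded by a pair of genes in zebrafish, *spi1a* and a gene listed as *SPI1* (ENSDARG00000000767). *SPI1* lay between 1.35 and 5.82 normalised CPM in neutrophils with a median of 2.71, and at 13.1, 28.3, 28.2, 33.0 and 15.5 in macrophages. It was 6.80-fold higher in macrophages (4.82 to 9.67, adjusted p = 6.43e-08, edgeR), and *spi1a* was 9.46-fold higher (6.62 to 13.7, adjusted p = 1.40e-08, edgeR), with no overlap for either.

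*SPI1* was higher than in keratinocytes in the libraries of both cell types. Its log2 difference from keratinocytes was 1.52 in neutrophil libraries (adjusted p = 0.00315) and 4.38 in macrophage libraries (adjusted p = 1.11e-11, both edgeR). The part of macrophage RNA in the neutrophil value was not tested. *spi1a* had values of -0.56 (adjusted p = 0.279) and 2.70 (adjusted p = 7.46e-08). *TFEC*, a factor of the lysosomal regulator family, was 9.16-fold higher in macrophages than in neutrophils (4.74 to 18.7, adjusted p = 0.000100, edgeR). With a neutrophil median of 0.332 normalised CPM, *TFEC* could be tested only through its macrophage counts, which fixes its direction.

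Most lysosomal genes were higher in macrophages. Of 31 lysosomal and cathepsin genes tested out of 39, 20 were higher in macrophages and 0 in neutrophils. A negative difference was found for 30, with a median of -1.83 on the log2 scale. The pan-leukocyte genes described below had a median of -2.24. The sums of the list did not overlap, at 58.2 to 94.4 normalised CPM in neutrophils and 198 to 365 in macrophages. *ctsl.1*, a cathepsin L protease, lay between 0.121 and 0.895 in neutrophils with a median of 0.279, and at 2.91, 13.3, 12.6, 23.0 and 12.9 in macrophages. *CTSB* (ENSDARG00000055120), cathepsin B, lay between 1.59 and 8.13 with a median of 2.62 in neutrophils, and at 23.4, 30.03, 44.8, 43.7 and 25.1 in macrophages. Both were without overlap, with differences of 34.9-fold (19 to 69.2, adjusted p = 6.05e-08, edgeR) and 9.55-fold (5.94 to 15.5, adjusted p = 7.85e-07, edgeR). At most 0.895 in neutrophils, *ctsl.1* could be tested only through its macrophage counts, which fixes its direction.

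Cathepsin genes varied in how far they separated the cell types. *ctss2.2*, a cathepsin S, differed by 82.8-fold (43.0 to 226, adjusted p = 6.05e-08, edgeR) from 4 counts in all neutrophil libraries, *CTSK* by 8.91-fold (5.60 to 14.5, adjusted p = 9.85e-07) and *ctsla* by 2.34-fold (1.77 to 3.10, adjusted p = 0.000253). With 4 neutrophil counts, *ctss2.2* could be tested only through its macrophage counts, which fixes its direction. *PSAP*, which encodes the sphingolipid activators of the lysosome, was the most abundant of the list in macrophages, with a mean of 44.7 against 8.87 normalised CPM and a 4.57-fold difference (3.45 to 6.08, adjusted p = 9.76e-08, edgeR). *GUSB*, a lysosomal glucuronidase, differed 3.05-fold (2.08 to 4.46, adjusted p = 0.000403, edgeR), but its level in macrophages (31.6) was close to that in keratinocytes (33.2 normalised CPM, log2 difference -0.38, adjusted p = 0.526). Against keratinocytes, 13 of the 31 genes were higher in macrophages, beside 2.66% of all genes, and 0 in neutrophils, where 6 were lower, beside 6.36%.

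Lipid and iron handling followed in part. *apoeb* (ENSDARG00000040295), the apolipoprotein E of larval macrophages and microglia, lay between 2.81 and 9.10 normalised CPM in neutrophils with a median of 6.14, and at 26.7, 29.9, 45.5, 62.02 and 25.8 in macrophages. There was no overlap, and the difference was 5.26-fold (4.04 to 6.88, adjusted p = 1.40e-08, edgeR). Set against keratinocytes, *apoeb* was lower in neutrophils by a log2 difference of -1.81 (adjusted p = 3.01e-07) and did not pass in macrophages (0.58, adjusted p = 0.111, both edgeR). Of 11 lipid genes tested, 4 were higher in macrophages, among them the cholesterol exporter *abca1b* at 2.395-fold (1.81 to 3.18, adjusted p = 0.000189, edgeR), and 1 in neutrophils, the fatty acid binding protein gene *FABP7* (ENSDARG00000007697) at 1.98-fold (1.44 to 2.74, adjusted p = 0.00889, edgeR). *FABP7* is also a glial marker, and its call was lost without macrophage HRas control replicate 1 (adjusted p = 0.0510) or HRasG12V replicate 3 (adjusted p = 0.0511). Of 10 iron and heme genes, 3 were higher in macrophages: the heme oxygenase gene *HMOX1* at 7.73-fold (3.49 to 18.1), the iron exporter *SLC40A1* at 2.52-fold (1.68 to 3.79) and the ferritin gene *fthl27* at 2.101-fold (1.51 to 2.92, adjusted p between 0.00202 and 0.00516, edgeR). The ferritin *fth1a* did not pass, at a mean of 17.4 and 19.4 normalised CPM.

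Several of the steepest macrophage genes fell outside these groups. *galk1*, galactokinase, was 34.3-fold higher (20.8 to 62.2), *shtn2*, of the shootin family, 77.2-fold (41.0 to 182) and the C1q-like gene *c1ql1* 37.9-fold (22.0 to 72.5), with adjusted p between 8.96e-09 and 2.03e-08 (edgeR). *g0s2*, an inhibitor of triglyceride lipase, and *rgs18*, a regulator of G protein signalling in blood cells, had 1 count each over all neutrophil libraries, against 184 and 151 over the macrophage libraries. Both could be tested only through their macrophage counts, which fixes their direction. *galk1*, *shtn2* and *c1ql1* did not overlap between the cell types.

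A chemokine gene was among the sharpest separators. *ccl34b.1* (ENSDARG00000093608), a CC chemokine, had the smallest p-value of all named genes. It lay between 0 and 1.05 normalised CPM in neutrophils with a median of 0.305, and at 17.6, 22.4, 35.4, 38.2 and 7.95 in macrophages. The difference was 49.8-fold (31.3 to 83.8, adjusted p = 4.52e-10, edgeR) without overlap. With so few neutrophil counts, *ccl34b.1* could be tested only through its macrophage counts, which fixes its direction. Of 27 chemokine and chemokine receptor genes, 6 could be tested, of which 3 were higher in macrophages and 0 in neutrophils. However, 3 of the 6 had at most 3 counts over all neutrophil libraries. They could be tested only through their macrophage counts, which fixes their direction. The call of *ccl34a.4* was lost without macrophage HRas control replicate 2 (adjusted p = 0.0736, edgeR). *ccl35.1* had no count in any neutrophil library and was at least 2.24-fold higher in macrophages, given a floor of 3 counts per library. *CXCL12* (ENSDARG00000037116), a chemokine of stromal cells, did not pass, at a mean of 1.14 and 1.67 normalised CPM.

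Receptors and sensors of innate immunity lay on the macrophage side as well. Of 17 genes for Fc receptor adaptors and Src and Syk kinase signalling, 11 were higher in macrophages and 0 in neutrophils (6 without macrophage HRas control replicate 2). The adaptor gene *fcer1gl* lay between 0 and 2.67 normalised CPM in neutrophils with a median of 0.772, and at 6.54, 14.6, 19.9, 29.4 and 8.15 in macrophages. It was 14.8-fold higher in macrophages (9.40 to 23.9, adjusted p = 3.12e-08, edgeR) without overlap. Of 12 pattern recognition and inflammasome genes, 5 were higher in macrophages, among them *CARD9*, an adaptor downstream of C-type lectin receptors, at 8.05-fold (5.17 to 12.8, adjusted p = 9.39e-07, edgeR), and *pycard*, the inflammasome adaptor, at 4.99-fold (2.76 to 9.24, adjusted p = 0.00111, edgeR). *caspb*, an inflammatory caspase of zebrafish, was at a mean of 4.101 and 4.09 and was lower than in keratinocytes in both, with log2 differences of -2.02 and -1.98 (adjusted p = 5.08e-06 and 2.80e-05).

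Cytokine genes and antigen presentation were thinly covered. Of 13 cytokine and receptor genes tested, 5 were higher in macrophages and 0 in neutrophils (2 without neutrophil HRasG12V replicate 2), among them *il12a*, at a mean of 22.1 against 8.40 normalised CPM and a 2.77-fold difference (2.04 to 3.78, adjusted p = 8.56e-05, edgeR), and the Tnf receptor gene *tnfrsf1a* at 3.78-fold (2.23 to 6.53, adjusted p = 0.00217, edgeR). Of 14 genes of antigen presentation and 8 of complement, 2 and 1 had enough counts to be tested, and 1 of each was higher in macrophages. These were *ifi30a*, a lysosomal thiol reductase, and *cfp*, properdin, with log2 differences of -2.64 (adjusted p = 0.0379) and -1.97 (adjusted p = 0.0302, both edgeR). The call of *ifi30a* was lost on leaving out any 1 of 8 libraries (all but neutrophil HRas control replicates 2 and 3 and macrophage HRas control replicate 2), with adjusted p between 0.0626 and 0.143. That of *cfp* was lost without any 1 of 7 (neutrophil HRasG12V replicates 1 and 2, neutrophil HRas control replicate 2, macrophage HRas control replicate 2 and macrophage HRasG12V replicates 1, 2 and 3), with adjusted p between 0.0556 and 0.114. Among 7 interferon response genes, the GTPase gene *gbp1* was higher in macrophages by 12.6-fold (7.02 to 23.8, adjusted p = 3.64e-06, edgeR).

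Genes that leukocytes have in common were also unequal between the cell types. Of 31 pan-leukocyte genes, 25 could be tested, and 19 of these were higher in macrophages and 0 in neutrophils. The median log2 difference was -2.24, with a negative difference in all 25. The medians of the macrophage surface (-3.18) and chemokine (-4.59) lists lay beyond this. Those of the Fc receptor adaptor (-1.94), lysosome (-1.83), oxidase (-1.51), pattern recognition (-0.85) and transcription factor (-0.80) lists did not. Whether the latter lists differed beyond the pan-leukocyte genes was not tested. *LCP1* (ENSDARG00000023188), the leukocyte actin bundling protein L-plastin, lay between 4.17 and 23.9 normalised CPM in neutrophils with a median of 13.5, and at 42.2, 61.7, 73.2, 59.5 and 30.2 in macrophages. *CORO1A* (ENSDARG00000054610), a coronin of the leukocyte cortex, lay between 1.59 and 8.19 with a median of 4.01, and at 13.8, 28.7, 31.2, 41.1 and 10.97. Neither overlapped, with differences of 3.93-fold (2.66 to 5.82, adjusted p = 4.25e-05, edgeR) and 4.86-fold (3.33 to 7.13, adjusted p = 4.08e-06, edgeR). *NCKAP1L*, a subunit of the complex that activates branched actin assembly in blood cells, was 9.20-fold higher in macrophages (6.59 to 12.98, adjusted p = 8.96e-09, edgeR).

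**Figure D3:**
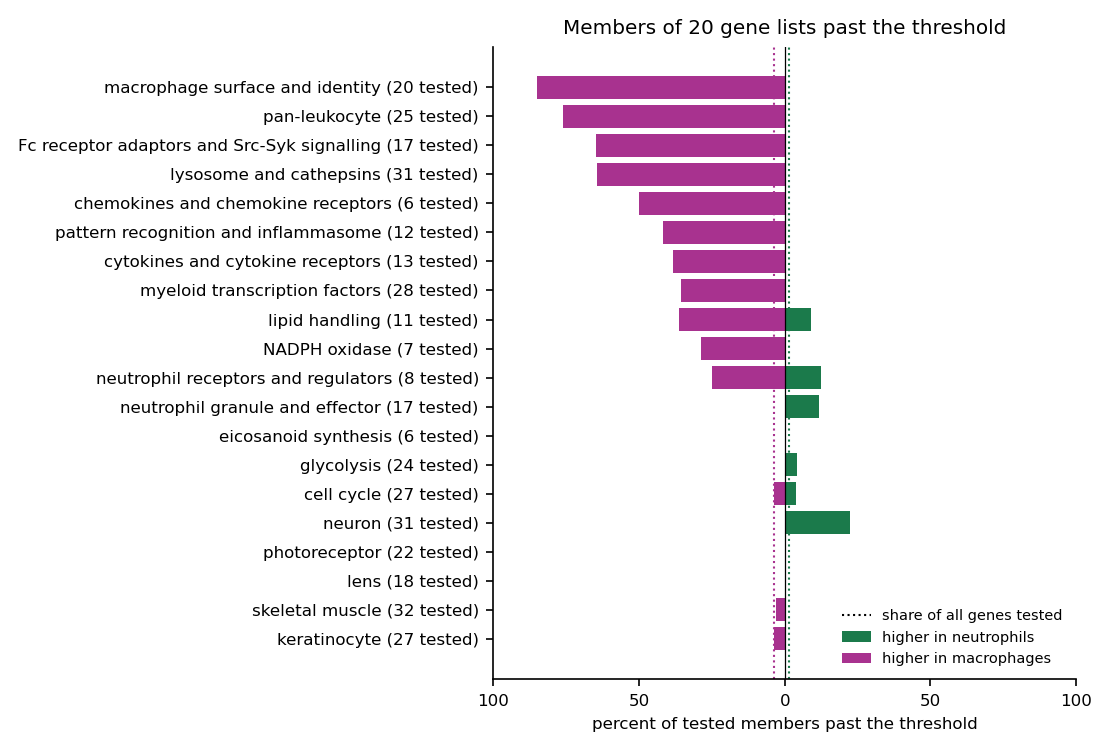
Percent of the tested members of 20 gene lists that were higher in neutrophils (right) or higher in macrophages (left), with the share over all genes tested as dotted lines at 1.47% and 3.69%. The macrophage surface list (17 of 20), pan-leukocyte list (19 of 25) and lysosome list (20 of 31) reach far to the left, and the neuron list (7 of 31) reaches farthest to the right.

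Set beside keratinocytes, 21 of the 25 pan-leukocyte genes were higher in macrophages, beside 2.66% of all genes, and 0 were lower. In neutrophils 9 were higher and 2 lower, beside 6.33% and 6.36%. Both comparisons share the keratinocyte libraries, so each is given on its own. *CORO1A* was higher by 2.68 on the log2 scale in neutrophils (adjusted p = 2.85e-06) and by 5.06 in macrophages (adjusted p = 1.67e-12, both edgeR). *LCP1* gave 2.14 (adjusted p = 1.21e-06) and 4.26 (adjusted p = 1.13e-12), and *ptprc*, the leukocyte phosphatase CD45, 1.85 (adjusted p = 0.0195) and 2.97 (adjusted p = 0.000219). Other members, such as *hcls1*, a cortactin-like adaptor, were lower in neutrophils than in keratinocytes (-1.20, adjusted p = 0.000106) and higher in macrophages (0.89, adjusted p = 0.00610). The list summed to between 40.7 and 126 normalised CPM in neutrophils and between 193 and 510 in macrophages.

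The machinery for oxidative burst and adhesion showed the same order with fewer calls. *NCF1* (ENSDARG00000033735), a cytosolic subunit of the phagocyte NADPH oxidase, lay between 0.625 and 8.00 normalised CPM in neutrophils with a median of 3.204, and at 4.36, 9.44, 12.9, 13.7 and 8.66 in macrophages. The ranges overlapped, and it was 2.85-fold higher in macrophages (1.78 to 4.58, adjusted p = 0.00592, edgeR) but higher than in keratinocytes in both, with log2 differences of 1.80 (adjusted p = 0.00476) and 3.49 (adjusted p = 2.88e-07). *rac2*, the leukocyte GTPase of the oxidase and of migration, was 5.86-fold higher in macrophages (4.16 to 8.33, adjusted p = 2.07e-07, edgeR). These were 2 of 7 oxidase genes tested, and 0 were higher in neutrophils. Of 15 integrin and adhesion genes, 2 were higher in macrophages, the integrin linker *TLN1* (ENSDARG00000100729) at 2.00-fold (1.54 to 2.61, adjusted p = 0.00134) and *itgae.1* at 6.23-fold (2.86 to 14.1, adjusted p = 0.00426, edgeR). Of 18 S100, annexin and small actin regulator genes, 4 were higher in macrophages, with *pfn1*, a profilin, at a mean of 28.0 against 100.4 normalised CPM and a 3.18-fold difference (2.38 to 4.25, adjusted p = 7.78e-06, edgeR).

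**Figure D4:**
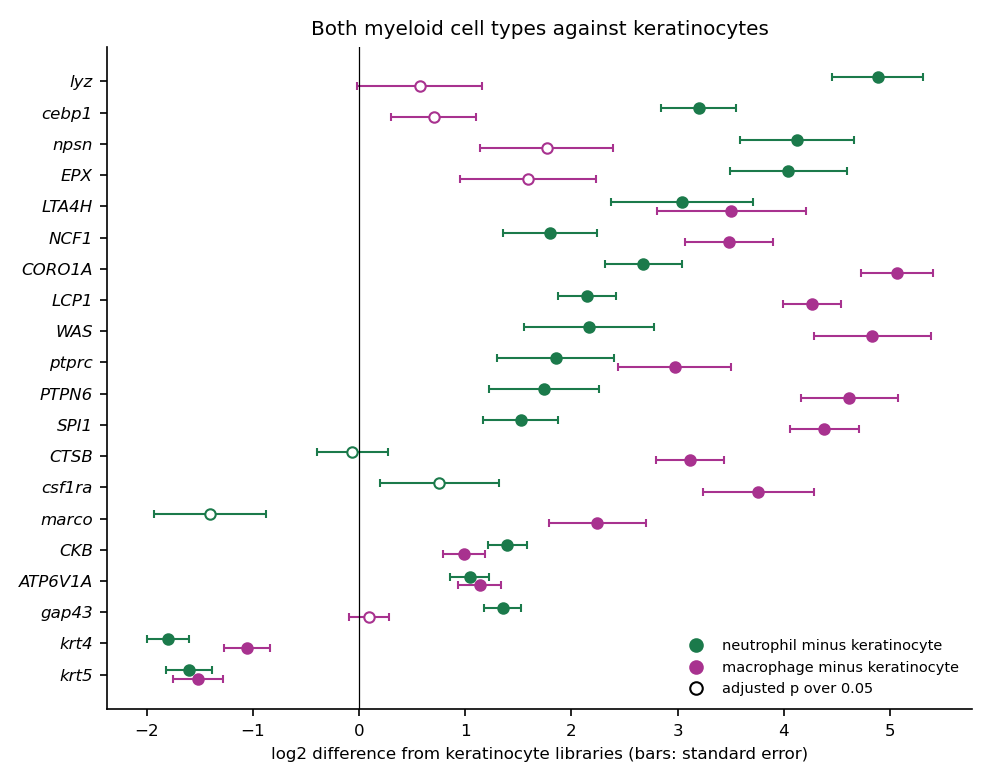
Fitted log2 differences of neutrophil and of macrophage libraries from the 6 keratinocyte libraries for 20 genes, with standard errors as bars and open symbols where the adjusted p-value exceeds 0.05. *lyz*, *cebp1*, *npsn* and *EPX* are raised in neutrophils alone, *CTSB*, *csf1ra* and *marco* in macrophages alone, and *LTA4H*, *NCF1*, *CORO1A*, *LCP1*, *CKB* and *ATP6V1A* in both.

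Some genes were higher in the mean of both leukocytes than in keratinocytes and lay within 2-fold between neutrophils and macrophages. In a fit with the keratinocyte libraries, 320 of 16011 genes (2.00%) were over 2-fold higher in the mean of both leukocytes than in keratinocytes. Of these, 25 were also higher in neutrophils than in macrophages and 92 higher in macrophages. There were 65 genes (0.418% of the genes tested) that did not pass the threshold between the leukocytes and whose 95% interval lay within 2-fold, and 0 of these belonged to any of the gene lists. For reference, 5371 of all genes (34.5%) had such an interval. The 65 included *GPHN*, *map6b*, *dab1b* and *RPE65* besides the genes named below. The part of RNA carried along from other tissues in this set was not tested.

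The shared genes with the highest level per length included *CKB* and subunits of ATP synthase and of the vacuolar proton pump. *CKB* (ENSDARG00000043257), the brain-type creatine kinase, lay between 96.7 and 135 normalised CPM in neutrophils with a median of 107, and at 70.14, 86.1, 93.9, 117 and 61.4 in macrophages, against a keratinocyte mean of 35.4. *ATP6V1A* (ENSDARG00000034534), the catalytic subunit of the vacuolar proton pump, lay between 31.8 and 52.0 with a median of 37.4, and at 41.1, 38.5, 55.4, 51.1 and 30.5, against 16.03 in keratinocytes. The ranges of *ATP6V1A* overlapped, whereas for *CKB* only macrophage HRasG12V replicate 2 lay within the neutrophil range and the other 4 libraries lay below it. The log2 differences between the leukocytes were 0.42 for *CKB* (95% interval 0.02 to 0.82, which lies above 0) and -0.10 for *ATP6V1A* (-0.50 to 0.31). Per kilobase of effective length, *CKB* had 100.9 and 77.4 normalised CPM in neutrophils and macrophages, ENSDARG00000101114, which has no symbol in the tables used, 36.2 and 30.8, the ATP synthase subunit *atp5mc1* 30.7 and 36.0, and the pump subunit *ATP6V1G1* 25.7 and 32.6. The ATP synthase subunits *atp5f1e* and *ATP5F1D*, the respiratory chain subunits *NDUFB9* and *cox6b1*, and the RNA-binding proteins *SNRPF*, *LSM6* and *HNRNPL* were also among the 12 highest. The interval of *HNRNPL* also lay above 0 (log2 difference 0.56, 0.14 to 0.98), and this gene passed without neutrophil HRas control replicate 1 (adjusted p = 0.0200, edgeR).

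*LTA4H*, the enzyme that makes the neutrophil attractant leukotriene B4, was higher than in keratinocytes in neutrophils (log2 difference 3.04, adjusted p = 0.00159) and in macrophages (3.50, adjusted p = 0.000833, both edgeR). Its difference between the leukocytes was -0.48 with a 95% interval of -1.41 to 0.43, so that up to 2.65-fold more in macrophages was not excluded by the interval. Of 6 eicosanoid genes and 13 matrix metalloproteinase and inhibitor genes tested, 0 passed the threshold in either direction by edgeR, with 2 at an unadjusted p under 0.05, and 2 passed by DESeq2 and by limma-voom. The metalloproteinase gene *MMP9*, for example, lay between 0 and 4.67 normalised CPM in neutrophils and between 0.502 and 11.7 in macrophages.

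Transcripts of other tissues were abundant in the libraries of both cell types. The 29 keratinocyte genes summed to between 1335 and 2525 normalised CPM in neutrophil and between 1840 and 3597 in macrophage libraries, and the 36 skeletal muscle genes to between 1174 and 5095 and between 2704 and 4442. Of 32 muscle genes tested, 24 had a difference within 2-fold by their 95% interval, and 1 passed the threshold, *TNNI2*, a fast-muscle troponin, higher in macrophage libraries by a log2 difference of -0.74 (adjusted p = 0.0131, edgeR). Its call was lost without macrophage HRas control replicate 1 (adjusted p = 0.0809) or HRasG12V replicate 3 (adjusted p = 0.0822). Of 27 keratinocyte genes tested, 1 passed: *krt4*, which was 1.69-fold higher in macrophage libraries (1.27 to 2.24, adjusted p = 0.0231, edgeR), a call that was lost on leaving out any 1 of 6 libraries (neutrophil HRasG12V replicates 1, 2 and 3, neutrophil HRas control replicate 2, and macrophage HRasG12V replicates 1 and 2), with adjusted p between 0.0528 and 0.0988. Against keratinocyte libraries, 22 of the 27 were lower in neutrophils and 17 in macrophages, beside 6.36% and 2.33% of all genes. Of the photoreceptor (22 genes tested), lens (18), cardiac muscle (9), erythroid (13), thrombocyte (4), lymphoid (6) and haematopoietic progenitor (9) lists, 0 of 81 genes passed in either direction by edgeR, with 6 at an unadjusted p under 0.05, and 1 passed by DESeq2 and by limma-voom. The glia list had 1 of 12 genes higher in each direction, and the pigment cell list had 1 of 13, *csf1ra*, higher in macrophages. Beside 3.69% of all genes, the liver and gut list had 2 of 16 genes higher in macrophages, the endothelial list 1 of 15, and the cartilage, bone and fibroblast list 1 of 21. The last was the collagen gene *COL1A1* (ENSDARG00000035809, log2 difference -0.81, adjusted p = 0.0465, edgeR), whose call was lost without any 1 of 6 libraries (neutrophil HRasG12V replicates 1 and 3, neutrophil HRas control replicate 3, macrophage HRas control replicate 2 and macrophage HRasG12V replicates 1 and 3), with adjusted p between 0.0631 and 0.260. The part of these tissues in the differences between neutrophils and macrophages was not tested.

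**Figure D5:**
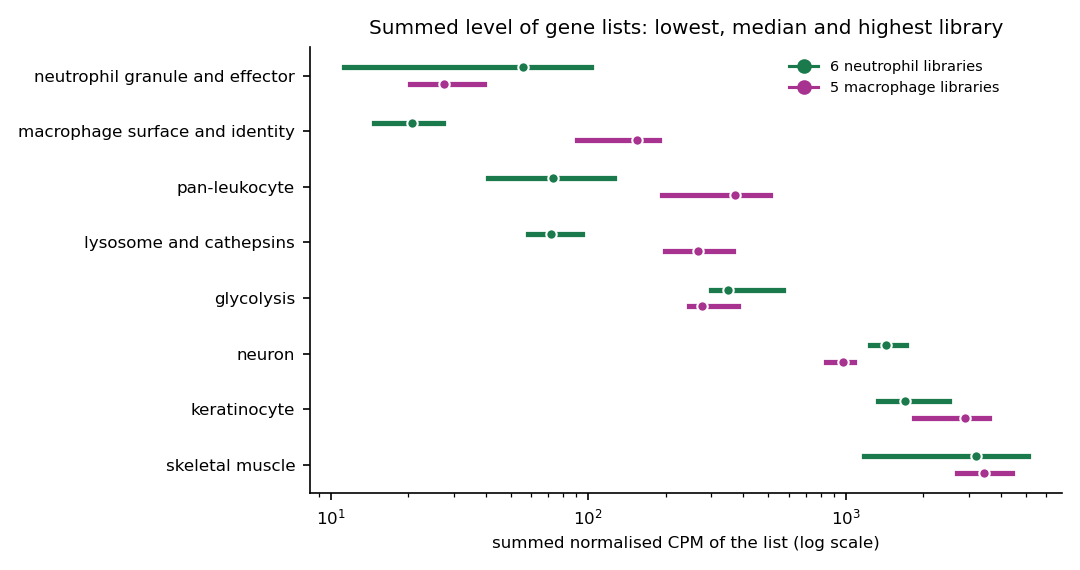
Summed normalised CPM (log axis) of 8 gene lists, with a line from the lowest to the highest library and a point at the median for each cell type. The macrophage surface, pan-leukocyte and lysosome lists separate upward in macrophages and the neuron list upward in neutrophils, while the keratinocyte and skeletal muscle lists overlap and exceed the leukocyte lists.

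In a few pairs of genes with like or identical symbols, the members were divided between the cell types. *PITPNA* and *PITPNB*, genes for phosphatidylinositol transfer proteins, were paired by their symbols alone, which does not make them copies of 1 gene. *PITPNA* was 2.74-fold higher in neutrophils (1.71 to 4.41, adjusted p = 0.00838, edgeR). *PITPNB* was 2.52-fold higher in macrophages (1.69 to 3.77, adjusted p = 0.00434, edgeR). The call of *PITPNA* was lost without macrophage HRas control replicate 2 (adjusted p = 0.0542). The second gene listed as *RRM2* (ENSDARG00000078069) was 1.74-fold higher in macrophages (1.29 to 2.35, adjusted p = 0.0227, edgeR), opposite to the first, but this call was lost when any of 7 libraries was left out (all but neutrophil HRas control replicate 3, neutrophil HRasG12V replicate 2 and macrophage HRasG12V replicates 2 and 3). Genes listed as *FNBP1* and as *ATP6V1B2* also had 1 copy called in each direction, with calls that were lost on leaving out any 1 of several libraries, apart from the *ATP6V1B2* copy higher in macrophages. RSEM may divide reads between genes of similar sequence, so the values of genes with the same symbol are uncertain.

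By edgeR, no difference between the cell types was called as dependent on the construct carried by the keratinocytes. The macrophage side had few HRas control libraries, so a lack of calls does not show that the differences were equal. In a test of whether the difference between neutrophils and macrophages depended on HRasG12V, 0 of 15546 genes (0%) passed by edgeR's quasi-likelihood test, with 703 at an unadjusted p under 0.05 and a smallest adjusted p of 0.0863. DESeq2 called 10 genes and limma-voom 0. The smallest p belonged to *GNAT2*, a transducin of cone photoreceptors. With the HRasG12V libraries alone, 119 genes were higher in neutrophils and 375 in macrophages, and with the HRas control libraries alone 144 and 209.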

How the data were processed

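Ribosome-bound transcripts were profiled by TRAP-seq from pooled larvae. The authors amplified the RNA with 20 cycles of PCR, sequenced single-end reads, aligned them to GRCz10 with Bowtie 1.1.1 and estimated counts per gene with RSEM 1.2.20, as the labels and the study's methods state. The deposited expected counts were rounded to whole numbers here. The effective length that the authors deposited beside each estimated count served only for levels per kilobase, and the deposited TPM and FPKM values were not used. PCR reads without molecular identifiers are not independent molecules, so counting intervals and the floor of 3 counts cover counting error only.

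Genes were filtered by edgeR's filterByExpr, scaled by TMM and tested by the quasi-likelihood test of edgeR 4.0.16 in R 4.3.3, with cell type, construct and replicate as terms and Benjamini-Hochberg adjustment over all 15546 genes. The filter worked over groups of cell type by construct, so that a gene could be kept through its counts in a single cell type. For a gene scarce in the other cell type, this fixes the direction of its difference. A gene was called at an adjusted p of at most 0.05. Keratinocyte contrasts came from a fit of 17 libraries. DESeq2 1.42.0 and limma 3.58.1 (voom), other scalings, filters, covariates and left-out libraries were tried as alternatives. In counts simulated for this comparison, 126 of 200 genes changed 2-fold and 199 of 200 changed 4-fold were recovered. The changed genes were drawn from the more abundant genes only, and no batch or construct effect was simulated. These rates therefore do not cover scarce genes.

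The replicate number equals the batch number in the labels, and was therefore kept as a block. Residual correlations of same-numbered libraries had a median of -0.00 over 15 pairs, against -0.14 over 40 other pairs. The labels do not name the clutch of each pool, so that p-values measure the spread between these pools.

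Symbols came from the reference tables for 26121 of 31953 genes, and 711 of 802 list entries were matched. Named genes were, in each direction, the 12 largest non-overlapping differences with a mean count of at least 20. In each list, up to 5 called members per direction and the 2 most abundant members were named. Also named were split pairs of genes with like symbols, the 12 most abundant shared genes per length and the genes of the tag promoters. Other genes were named after their values were seen. The members and lists were chosen with earlier results of these data known.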

Additional observations from a re-analysis of the deposited data

Results flagged for a closer look

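In 17 of 206 groups of values examined (100 named genes and 3 measures of depth in each cell type), 1 library lay far from the others by Dixon's criterion. Chance flags about 1 in 20 for normally distributed values. Normalised CPM with libraries at 0 are not so distributed, so the 17 cannot be read against that rate. Macrophage HRasG12V replicate 3 was the one for 4 genes: *HSP90AA1* at 40.3 (median 23.2), *tubb5* at 40.9 (70.5), *MMP9* at 11.7 (1.78) and *SMC1A* at 8.26 normalised CPM (2.11). Other macrophage libraries were set apart in *RRM2* (ENSDARG00000020711; 0.804 in HRas control replicate 2, median 0), *cox6b1* (3.45 in HRas control replicate 1, median 5.44) and *FNBP1* (ENSDARG00000101028; 23.4 in HRasG12V replicate 1, median 16.4).

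Among neutrophil libraries, HRas control replicate 3 held 15.9 normalised CPM of *RAB3A* (median 7.80) and 41.9 of *atp5mc1* (20.2). HRas control replicate 2 held 36.7 of *fth1a* (14.3) and 32.1 of *SNRPF* (10.2), and HRas control replicate 1 held 57.3 of *GNAT2* (9.81) and 131.8 of *COL1A1* (72.9). HRasG12V replicate 1 held 1.77 of *HMOX1* (0.280) and 1.35 of *TFEC* (0.332). HRasG12V replicate 2 held 0.0607 of *rgs18* and 0.0607 of *g0s2*, where the other neutrophil libraries were all at 0, so that these flags carry little information.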

How the results depend on the processing

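The counts of genes higher in neutrophils, higher in macrophages, dependent on the construct, and shared were 228, 574, 0 and 65. The neutrophil count was 12 without normalization beyond library size, 354 with all genes of at least 1 count, 348 by DESeq2 and 348 by limma-voom. Construct-dependent genes numbered 30 without normalization, 49 with all genes of at least 1 count, 10 by DESeq2 and 37 with macrophage HRas control replicate 3 included. Shared genes numbered 641, 98, 19 and 42 without normalization, with all genes of at least 1 count, with a mean of at least 50 counts, and by limma-voom. HRasG12V libraries alone gave 119 and 375 genes, and HRas control libraries alone 144 and 209, from fewer samples. Leaving out 1 library or 1 batch gave 26 to 258 neutrophil genes, 248 to 644 macrophage genes, 0 to 27 construct-dependent genes and 12 to 126 shared genes. Without the replicate block the counts were 248, 596, 0 and 63. Of the named genes, 5 of 24 called higher in neutrophils and 39 of 81 called higher in macrophages were called under every alternative that could test them. The log2 difference of *gnb3b* (ENSDARG00000002696) turned to -1.19 with the HRasG12V libraries alone. The causes of these shifts were not tested. At 3.197 to 19.4 counts per normalised CPM, differences in genes under 1 normalised CPM were at the limit of this depth.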
